A study of Mus musculus with 2 samples.

Results

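The cluster described here is the imprinted run of microRNA genes from Mir379 to Mir410 on the distal part of mouse chromosome 12, in the Dlk1-Dio3 region. Its members were defined by position, as the microRNA genes of the GENCODE M21 annotation that lie on the plus strand between the start of Mir379 and the end of Mir410 (mm10 chr12:109709060-109743795). This rule found 38 of the 2202 microRNA genes in the deposited tables. It was set with earlier results of these data known, as stated below. Small RNA from total RNA of the gastrocnemius, the large calf muscle, was sequenced from male B6CASTF1/J mice aged 36 days, which are hybrids of C57BL/6J and CAST. All of them belong to a single group of 2 libraries, called replicates 1 and 2, whose labels name different males but carry the same donor identifier. No second tissue, age or treatment was profiled, so the members were compared with one another, with other microRNA genes and between the 2 animals.

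MicroRNAs are cut from hairpin precursors as short strands, or arms, that pair with messenger RNAs mainly through the seed, which is bases 2 to 8 of the arm. The microRNAs of this cluster are found in placental mammals and are expressed from the maternal chromosome, where they are thought to come from long noncoding transcripts such as Mirg. They are best known from the brain and the placenta, and mice that lack the cluster have been studied for failing to adapt their metabolism after birth. In muscle the region has been linked to the transcription factor MEF2A and to regeneration. The counts used here do not separate the maternal from the paternal allele. By the naming convention for hybrid mice the strain of the mother comes first in B6CASTF1/J, and the labels give no further detail of the cross.

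The sequences of the members that held most of the reads are shown first, since the seed groups described below rest on them. They are mature arms from RefSeq (GRCm38.p6, plus strand of chromosome 12), written 5′ to 3′ with the seed in capitals. The leading pair, Mir411 and Mir379, and the less abundant Mir1193 have closely related arms.
miR-411-5p: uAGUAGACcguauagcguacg
miR-379-5p: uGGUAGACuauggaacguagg
miR-1193-5p: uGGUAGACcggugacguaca
miR-411-3p: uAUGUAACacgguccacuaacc
miR-379-3p: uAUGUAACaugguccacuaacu

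The 5p arms of Mir379 and Mir1193 share the seed GGUAGAC, while the 5p arm of Mir379 differs from that of Mir411 by G2A within the seed. Substitutions are counted from 1 at the 5′ end, and the base in front is that of the arm named first. Outside the seed these 5p arms of Mir379 and Mir411 differ by U9C, A10G, G12A, G13U, A15G and G20C. The 3p arms of Mir379 and Mir411 share the seed AUGUAAC and differ only by U10C and U22C.

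The next most abundant members carry seeds that no other member has in the arms shown, apart from the 5p arms of Mir376c and Mir376b.
miR-299a-5p: uGGUUUACcgucccacauacau
miR-299a-3p: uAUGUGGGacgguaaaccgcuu
miR-487b-5p: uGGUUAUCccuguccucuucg
miR-541-5p: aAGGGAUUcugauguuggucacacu
miR-541-3p: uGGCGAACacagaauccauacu
miR-382-5p: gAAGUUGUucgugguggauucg
miR-382-3p: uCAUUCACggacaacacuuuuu
miR-376c-5p: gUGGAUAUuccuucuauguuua
miR-376b-5p: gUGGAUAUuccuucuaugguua
miR-369-5p: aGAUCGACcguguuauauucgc
miR-369-3p: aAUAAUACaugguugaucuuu

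The 5p arms of Mir376b and Mir376c share the seed UGGAUAU and differ by 1 base, G19U. RefSeq gave 69 arms for 37 of the 38 members (all but Gm27379), with 63 distinct seeds. Only 6 seeds were shared by 2 or more members, and these involved 11 members.

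The cluster held 146630 counts in replicate 1 and 88196 in replicate 2. Its share of counted reads was 3.55% in replicate 1, with an exact 95% interval by the Clopper-Pearson method of 3.53 to 3.56. In replicate 2 it was 2.74%, with an interval of 2.72 to 2.76, and the mean was 3.14% ± 0.571 (SD, n = 2). The shares differed between the animals by more than counting error, which is all that these intervals cover. Of the 38 members, 32 had at least 10 counts in both libraries. The same was true of 12.2% of the 2164 other microRNA genes. Total counted reads were 4134880 in replicate 1 and 3219740 in replicate 2. The highest striated muscle markers were Mir206 (27262 ± 2019 CPM, counts per 1000000 counted reads) and Mir486 (881 ± 96.3 CPM), present in both. The other listed muscle genes were lower, with Mir1a-2 at 331, Mir499 at 266 and Mir208b at 109 CPM. Lowest were Mir133a-1 (24.5), Mir1a-1 (13.6), Mir133b (13.4) and Mir133a-2 (3.28 CPM). Genes with more than 1 locus can lose reads, as set out below.

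**Figure D1:**
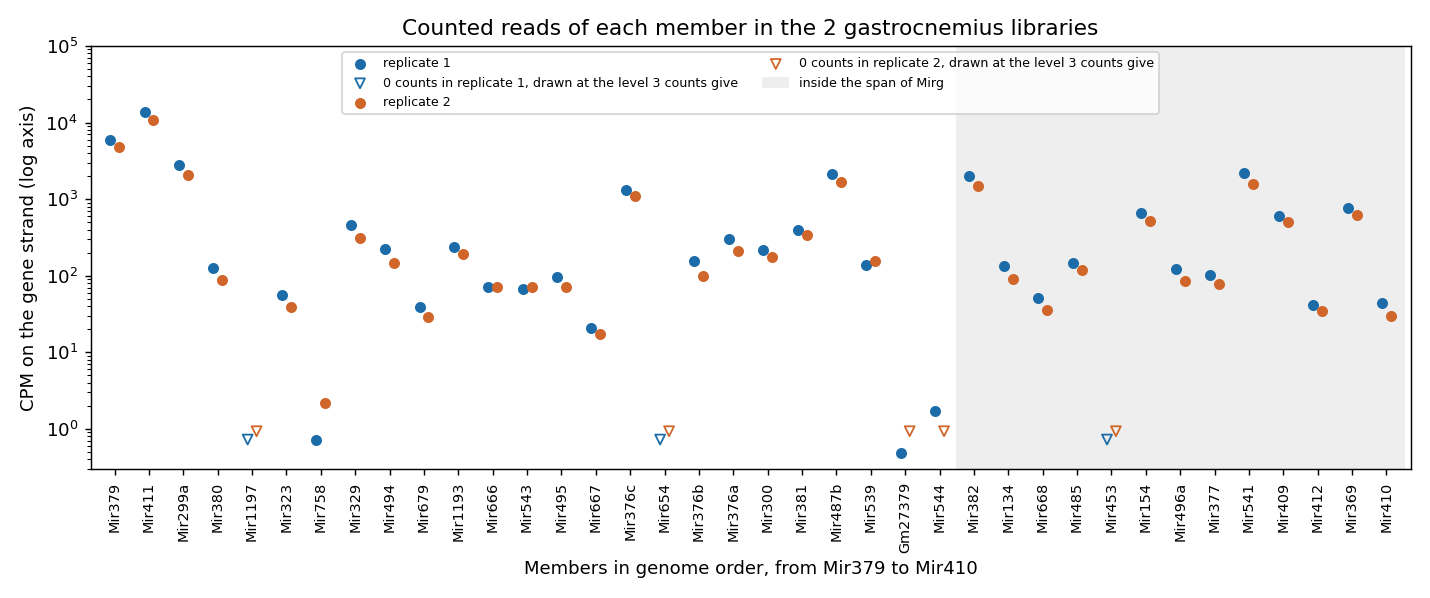
CPM of each of the 38 members in genome order, on a log axis, with 1 point per library (blue, replicate 1; orange, replicate 2) and grey shading for members inside the span of Mirg. Mir411 and Mir379 stood highest in both libraries, 9 of 31 adjacent pairs with 10 or more counts in each library differed by more than 10-fold, and open triangles mark counts of 0 at the level that 3 counts would give.

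Mir411, which has been studied in myoblasts, was the most abundant member. Replicate 1 gave 57099 counts of it and replicate 2 gave 34332, a level of 12236 ± 2225 CPM. By counted reads, which leave out those that fit more than 1 place, it ranked in place 19 of all microRNA genes. Mir379 followed with 24588 and 15339 counts (5355 ± 836 CPM), and Mir299a came next with 11457 and 6564 counts (2405 ± 518 CPM). These are also the first 3 genes of the cluster, lying at 109709060 to 109709125 (Mir379), 109710175 to 109710256 (Mir411) and 109710638 to 109710700 (Mir299a), with no annotated host gene on their strand.

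Reads were concentrated in these genes. Mir411 alone took 38.9% ± 0.00985 of the cluster's counts, the same share in both animals to 3 digits. The leading 3 took 63.6% ± 0.168, the leading 5 took 75.6% ± 0.148 and the leading 12 took 93.3% ± 0.0197. The same 12 members led in both libraries, and 8 of them held the same place in both. Within a library, Mir411 exceeded Mir379 2.28-fold (log2 ratio of counts + 0.5 of 1.19 ± 0.04) and exceeded Mir410, the last gene of the cluster, 332-fold (8.37 ± 0.14). With 2 libraries an exact two-sided sign-flip test cannot give a p below 0.5, so such ratios are read against their SD.

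The next 4 members lay further along the cluster, each above 1000 CPM in both libraries. Mir487b (109727333 to 109727414) had 8901 and 5332 counts, or 1904 ± 351 CPM. Mir541 (109742409 to 109742498), in an intron of Mirg, had 9015 and 5050 counts, or 1874 ± 433 CPM. Mir382 (109733771 to 109733846), which overlaps a Mirg exon in part, had 8388 and 4755 counts, or 1753 ± 390.2 CPM. Their CPM ranges over the animals overlapped. Within a library Mir487b and Mir541 changed places (log2 ratio 0.03 ± 0.07), while both stood slightly above Mir382 in each library (0.13 ± 0.06 and 0.10 ± 0.01). Mir376c (109722718 to 109722803) was lower, with 5372 and 3513 counts, or 1195 ± 147 CPM.

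A further 15 members lay between 100 and 1000 CPM. They were led by Mir369 (109743418 to 109743496), whose 3p arm has been studied in the control of messages with AU-rich elements, with 3129 and 2018 counts (692 ± 91.9 CPM). Mir154 (109738433 to 109738498), studied in lung fibrosis, had 2752 and 1650 counts (589 ± 108 CPM). Mir409 (109743158 to 109743236) had 2511 and 1631 counts (557 ± 71.2 CPM). Within each library Mir369 stood above Mir154 (log2 ratio 0.24 ± 0.07), and the difference between Mir154 and Mir409 was smaller than its SD (0.07 ± 0.08). Mir329 (109713481 to 109713577), known from activity-dependent control of dendrites, had 1880 and 1000 counts (383 ± 102 CPM). Mir381 (109726822 to 109726896) had 1640 and 1083 counts (366 ± 42.6 CPM), and the order of these 2 members differed between the libraries.

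The remaining members of that range fell from Mir376a at 256 ± 65.7 CPM to Mir496a at 104 ± 24.8 CPM. Between them stood Mir1193 (215 ± 30.2 CPM), Mir300 (195 ± 31.4), Mir494 (184 ± 54.1), Mir539 (147 ± 11.8), Mir485 (134 ± 19.9), Mir376b (127 ± 38.8), Mir134 (112 ± 30.7) and Mir380 (108 ± 26.6). Mir134 and Mir485 are the members best known from synapses, Mir134 through the kinase Limk1 in dendritic spines. In this muscle they held 0.353% ± 0.0337 and 0.427% ± 0.0140 of the cluster's counts.

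Another 10 members lay between 10 and 100 CPM, from Mir377 at 89.9 ± 16.9 CPM through Mir495, Mir666, Mir543, Mir323, Mir668, Mir412, Mir410 and Mir679 to Mir667 at 19.0 ± 2.24 CPM. Mir410 (109743715 to 109743795), which lies within an exon of Mirg and has been linked in muscle to Wnt signalling, had 184 and 96 counts, or 37.2 ± 10.4 CPM. The last 6 members were at the edge of detection. Mir758 had 3 counts in replicate 1 and 7 in replicate 2, Mir544 had 7 and 0, and Gm27379 had 2 and 0. Mir1197, Mir654 and Mir453 had 0 in both libraries. At these depths a true level of up to 0.726 CPM (replicate 1) or 0.932 CPM (replicate 2) could still give 0 counts.

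Position along the cluster did not order the levels. Across the 38 members, which share 2 libraries and are not independent replicates, distance from Mir379 was close to uncorrelated with log10(CPM + 1), at −0.02 for Pearson's r and −0.06 for Spearman's rho. The 3 genes at the Mir379 end, within 1.64 kb, took 63.6% of counts, the next 22 took 17.2% ± 0.216, and the 13 inside the span of Mirg took 19.1% ± 0.385. GENCODE M21 places 4 of those 13 wholly in an exon of at least 1 Mirg transcript (Mir134, Mir485, Mir377 and Mir410), 4 partly in one (Mir382, Mir668, Mir412 and Mir369) and 5 in introns (Mir453, Mir154, Mir496a, Mir541 and Mir409). The other 25 have no host gene on their strand in that annotation.

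**Figure D2:**
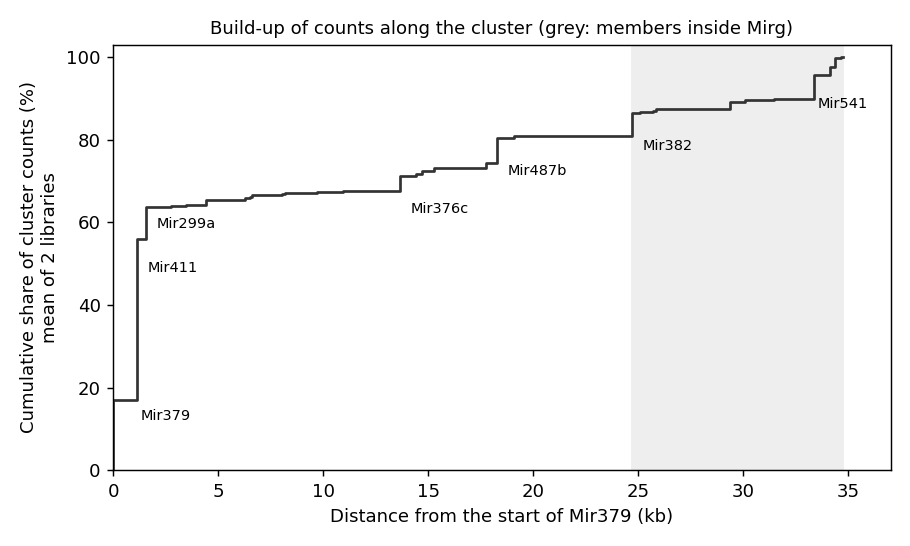
Cumulative share of the cluster's counts (%, mean of 2 libraries) against distance from the start of Mir379 (kb), with grey shading over members inside Mirg. The line climbs to 63.6% over Mir379, Mir411 and Mir299a, and later steps fall at Mir376c, Mir487b, Mir382 and Mir541.

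Neighbouring members were counted at very different levels. Among the 32 members with 10 or more counts in both libraries, 26 of 31 adjacent pairs differed by more than 2-fold, and 9 by more than 10-fold, with a median of 5.11-fold. The nearest neighbours of all, Mir679 and Mir1193, are 20 bases apart, and Mir1193 was 6.30-fold higher (log2 ratio 2.65 ± 0.10). Among the 9 pairs past 10-fold, those with the shortest gaps were near the Mir410 end. Mir409 and Mir412 are 52 bases apart, and Mir412 was 14.6-fold below Mir409 (log2 ratio −3.87 ± 0.02). Mir369 lies 49 bases further on and was 18.1-fold above Mir412 (4.18 ± 0.02). Mir410 was in turn 18.8-fold below Mir369 (−4.24 ± 0.21). Of the 31 pairs, 30 had the same direction in both libraries. The exception was Mir495 over Mir543, at 0.25 ± 0.37.

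Members that share a seed differed in level to unlike degrees. The hairpins that share AUGUAAC in their 3p arms, Mir379 and Mir411, held 56.0% ± 0.431 of the cluster's counts and differed 2.28-fold. Those that share GGUAGAC in their 5p arms, Mir379 and Mir1193, held 17.8% ± 0.470, and Mir379 exceeded Mir1193 24.8-fold (log2 ratio 4.63 ± 0.02). Mir376c and Mir376b, with UGGAUAU in their 5p arms, held 4.22% ± 0.175, and Mir376c exceeded Mir376b 9.58-fold (3.26 ± 0.27). Another gene of that family, Mir376a, stood 2.03-fold above Mir376b (1.02 ± 0.07). The miR-376 transcripts are known from the brain as targets of adenosine-to-inosine editing, which gene counts do not show. The counts are per hairpin and do not separate the arms, so these are shares of the genes and not of the seeds.

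The other shared seeds belonged to rare genes. Mir494 and Mir410, with GGUUGUC in their 5p arms, held 0.697% ± 0.0786, and Mir494, studied in muscle for its effect on mitochondria, exceeded Mir410 4.93-fold (2.30 ± 0.02). Mir453 and Mir496a, with GGUUGCC, held 0.329% ± 0.0192, all of it from Mir496a. Mir1197 and Mir758, with GGUUGAC, held 0.00499% ± 0.00417. In 11 members an arm shares its seed with a mouse arm outside the cluster. Among the 12 most abundant these are Mir411 with miR-7229-5p (AGUAGAC), Mir299a with miR-299b-3p (AUGUGGG) and Mir329 with miR-362-3p (ACACACC). The others are Mir1193, Mir134, Mir377, Mir495, Mir668, Mir412, Mir410 and Mir679.

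Some of the hairpins resembled each other beyond their seeds. A RefSeq hairpin that starts inside the GENCODE gene was matched for 35 members (all but Mir666, Mir544 and Gm27379). Any RefSeq hairpin of the unmatched members counts among the other hairpins below. Of the 35, 28 had their most similar hairpin, among all mouse hairpins in the table, inside the cluster. The median identity over all 35 was 68.3%. Nearest matches inside the cluster ran from 59.3% (Mir134) to 80.2% (Mir376c and Mir376b). Those outside it ran from 53.6% (Mir541) to 69.8% (Mir299a with Mir299b), so the ranges overlapped. No background of identity between unrelated hairpins was computed. The motif UACUUG stood in the first 20 bases of 9 of the 35 hairpins (25.7%) and in 1 of 970 other hairpins (0.103%). Its partner AGUAUC stood in the last 20 bases of 7 members (20.0%) and in 1 of the 970 others. Both were chosen after the hairpins were seen and were searched on the transcribed strand only. Mir411, Mir494, Mir487b and Mir369 carry both motifs, and their levels ran from 12236 CPM for Mir411 to 184 CPM for Mir494.

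Similar hairpins can lose reads where a read that fits more than 1 place is left out of every gene. The tables keep such reads in a line of their own, and no source used here says more of how they were handled. They made up 70.4% of replicate 1 and 73.3% of replicate 2 over the whole libraries. Where microRNA genes outside the cluster lose more reads in this way, the cluster's share of counted reads and the ranks of its members come out too high. No arm that RefSeq gave for a member occurred whole in another annotated hairpin. The longest such stretches were 18 of the 22 bases of miR-376c-5p and of miR-376b-5p, shared with each other, and 16 of the 22 bases of miR-300-3p and miR-381-3p. Mir299a is close to a palindrome, since 21 of the 22 bases of miR-299a-5p and 18 of the 22 bases of miR-299a-3p also occur on the opposite strand of its own hairpin, where Mir299b is annotated. Reads that end within those stretches cannot be placed on 1 strand, so the count of Mir299a can be too low. Copies elsewhere in the genome were not analysed here.

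The microRNAs between Meg3 and Mir379, which belong to the same imprinted region, were set beside the cluster. These 20 genes held 1.66% ± 0.251 of counted reads, and the cluster exceeded them 1.89-fold ± 0.0583. Mir127, which lies opposite the coding gene Rtl1, had 50184 and 32619 counts, and Mir434 had 10147 and 5706. Mir411 exceeded Mir127 by 0.13 ± 0.08 on the log2 scale, in both libraries, and exceeded Mir434 5.82-fold (2.54 ± 0.07). A filter then removed genes that share 20 bases or more with another hairpin. It took Mir411, Mir758, Mir376b, Mir376c and Mir487b from the cluster, but left 17 of the 20 upstream genes with nearly all their counts. After it the ratio of the cluster to the upstream genes was 0.959 ± 0.0324. The filter compares whole hairpins, and the arms of Mir411 share at most 8 (5p) and 12 (3p) bases with another hairpin.

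Between the animals, nearly every member of the cluster was lower in replicate 2. A lower level of the Dlk1-Dio3 microRNAs in replicate 2 was already known when the members and this comparison were chosen. Values are log2 ratios of replicate 2 over replicate 1, from CPM + 1 after TMM scaling, over genes that averaged 10 CPM or more, with 1 library on each side and no replicate check. Mir411 had a ratio of −0.21, Mir379 −0.15, Mir299a −0.28, Mir487b −0.21, Mir541 −0.31 and Mir382 −0.29. Of the 32 members in this comparison, 29 were below 0, where 55.9% of all 261 genes were. The 261 genes include the members themselves and the upstream genes of the same region. Their median was −0.21, a fall of 1.16-fold, against −0.05 for all genes. The ratios covered a narrow range, with quartiles of −0.34 and −0.10, where those of all genes were −0.26 and 0.13.

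The differences were small as well as shared. Replicate 2 was more than 1.2-fold lower for 14 of the 32 members, and 24.9% of all genes passed that fold. At 1.5-fold no member passed, and 8.43% of all genes did. The lowest ratios were those of Mir376b (639 and 321 counts, −0.46, counting interval −0.66 to −0.27), Mir494 (920 and 470 counts, −0.44, interval −0.60 to −0.28) and Mir410 (184 and 96 counts, −0.40, interval −0.78 to −0.05). In bulk muscle, fewer cells of a type and less RNA per cell cannot be told apart.

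Of the 32 members, 3 were higher in replicate 2. Mir539 had 573 and 500 counts, a ratio of 0.33 with a counting interval of 0.16 to 0.51. Mir543 had 279 and 229 counts (0.24, interval −0.02 to 0.50), and Mir666 had 298 and 231 counts (0.16, interval −0.09 to 0.41). The interval of Mir539 alone lay above 0 under TMM scaling. Under total-count scaling, for which no intervals were computed, Mir539 fell to 0.16, Mir543 fell to 0.07 and Mir666 turned to −0.01. Mir666 and Mir543 are neighbours, 74 bases apart, and Mir539 lies more than 10 kb further along.

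**Figure D3:**
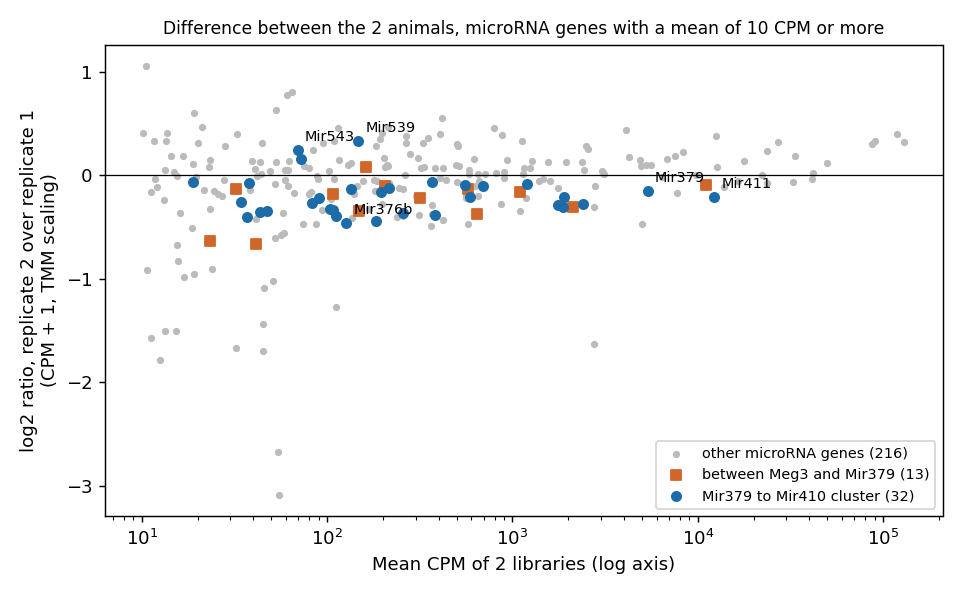
Log2 ratio of replicate 2 over replicate 1 against mean CPM (log axis) for 261 microRNA genes with a mean of 10 CPM or more, with 1 point per gene. The 32 cluster members (blue) form a narrow band, mostly just below 0, while other genes (grey) spread more widely. The band also holds most of the 13 upstream genes (orange squares, labelled in the figure as between Meg3 and Mir379).

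The level of this band depends on the scaling. Scaling to total counts put 30 of the 32 members below 0 with a median of −0.38, but it also put 79.7% of all genes below 0 with a median of −0.21. With DESeq2 size factors 29 members were below 0 with a median of −0.16, beside 49.0% of all genes and a median of 0.00262. Relative to the median of all genes the cluster lay at −0.16, −0.17 and −0.16 under TMM, total-count and DESeq2 scaling. A change of scaling moves every log2 ratio by nearly the same amount, so this agreement follows from the arithmetic and is no separate check.

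The genes upstream were set beside the cluster in the same way. Of their 13 genes at 10 CPM or more, 12 were lower in replicate 2, with a median of −0.18, and 5 were more than 1.2-fold lower. Mir127 had a ratio of −0.09 and Mir434 one of −0.30. The lowest, named after their values were seen, were Mir665 (219 and 95 counts, −0.66) and Mir370 (123 and 54 counts, −0.63), both past 1.5-fold.

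Markers of the cell types in whole muscle also differed between the animals. The 9 striated muscle genes together held 2.74% of counts in replicate 1 and 3.04% in replicate 2. Mir206 gave most of these (106820 and 92373 counts). Of the 8 in the comparison, 1 was lower in replicate 2 (median 0.33). The 10 neuron and glia genes held 0.435% and 0.126%, most of it from Mir338 (17718 and 3980 counts). Ratios were −1.63 for Mir338 and −1.67 for Mir137. All loci of Mir124a and Mir9 were at 0 in both libraries. Reads that fit more than 1 locus may be left out of each, so these 0s do not show absence. The 6 mesenchymal, fibroblast and smooth muscle genes held 8.67% and 9.46%. In that list Mir143 (0.30) and Mir145a (0.28) were higher in replicate 2, and the other 3 in the comparison were lower, for a median of −0.32. Mir126a of endothelium held 8.54% and 9.58% (0.33). The 4 leukocyte genes held 0.185% and 0.190%, with Mir155 at 0.46, Mir150 at 0.28, Mir142 at 0.08 and Mir223 at −0.37 (median 0.18). The red cell genes Mir451a and Mir144 held 0.0405% and 0.0394% together (0.16 and −0.01). The part of these cell types in the ratios of the cluster was not tested.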

How the data were processed

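MicroRNA-seq was run on 2 gastrocnemius libraries. The authors deposited 1 table per library with raw read counts for each microRNA gene, on the mm10 assembly per the labels, with the GENCODE M21 annotation per the descriptions deposited with the files. How reads were trimmed, aligned and assigned to genes is not given in the sources used here. Counts come in 3 columns (ignoring strand, gene strand, opposite strand), and 4 lines that name no gene stayed out of library sizes. The gene-strand column was used, because 5 members overlap an opposite-strand microRNA and are counted as ambiguous in the column that ignores strand. Counted reads made up 20.96% (replicate 1) and 19.2% (replicate 2) of the total, and 7.05% and 6.02% were unmapped.

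Values are CPM with mean and SD over 2 libraries. Ratios between genes used counts + 0.5. Ratios between animals used CPM + 1 with TMM factors of 1.06 and 0.944 from edgeR 4.0.16, fitted on all genes. DESeq2 1.42.0 size factors and total counts were alternatives. The ratio step was tested on simulated data that held counting error only, so the spread between animals was not checked by it. Counting intervals are exact 95% binomial intervals and leave out every error but that of counting, as copies made by PCR do not count separate molecules. Ligation and amplification can favour some microRNAs over others, which affects levels between genes more than ratios between animals. No test between conditions is possible with 1 group, and the spread between the 2 animals may be in part technical.

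Named in full were the 12 most abundant members, both ends of the cluster, members at 0, the 3 lowest and 3 highest ratios, every seed shared between members, the 2 highest upstream genes and the 2 highest of each marker list. Sequences are from RefSeq (GRCm38.p6). The members, marker lists and comparisons were chosen with earlier results of these data known, including a lower level of the Dlk1-Dio3 microRNAs in replicate 2.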

Additional observations from a re-analysis of the deposited data

Results flagged for a closer look

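Opposite-strand reads were found for 1 member, in a column that the comparisons do not use. Mir299a had 5 counts on the opposite strand in replicate 1, more than the 3 that a count of 0 allows, and 2 in replicate 2. The annotation places Mir299b there, and the other 37 members had 0 opposite-strand counts in both libraries.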

How the results depend on the processing

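In the column that ignores strand, where Mir299a, Mir380, Mir376a, Mir539 and Mir409 are at 0, the cluster held 3.72% of counted reads, its leading member 43.8% of the cluster and its leading 5 members 82.7%. The seed groups there held 63.0% (Mir379 and Mir411), 20.0% (Mir379 and Mir1193), 4.75% (Mir376c and Mir376b), 0.784% (Mir494 and Mir410) and 0.370% (Mir453 and Mir496a), and the cluster exceeded the upstream genes 1.82-fold. Of all reads, including those in no gene, the cluster held 0.635%. The 33 members with no stretch of 20 bases shared with another hairpin leave out Mir411. Among them Mir379 led with 33.6%, and the ratio to the upstream genes, which kept nearly all their counts, was 0.959. Total-count scaling moved the median ratio between animals to −0.38 and the members over 1.2-fold lower to 24 of 32 (42.1% of all 261 genes), and turned Mir666 to −0.00643, while with TMM and a threshold of 1.5-fold the count was 0. In single libraries the share of counted reads ran from 2.74% to 3.55%. Other minimums, pseudocounts and DESeq2 size factors left the median between −0.22 and −0.16 and moved no count by over 1.5 times. Depth limits the 6 members under 10 CPM, for which no ratio is given.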
